A study of Mus musculus with 27 samples.

Results

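This report follows 7 genes of the voltage-gated calcium channel of skeletal muscle through volumetric muscle loss (VML): the RGK GTPase genes Rrad and Gem, the channel subunit genes Cacna1s, Cacnb1, Cacna2d1 and Cacng1, and the channel adaptor gene Stac3. They were taken as the rows of the deposited expression table whose gene symbol equals one of these 7 names, and each name matched 1 of the 54532 genes. The 7 names were chosen by family, with the group differences in FPKM of these same samples already known, so their values are a description. Where a member is said to be called or not, this places it against the threshold used for all genes and is no test of it, since the choice could favour genes that pass. Messenger RNA of whole tibialis anterior muscle was sequenced in 27 samples from C57BL/6 mice, which the design text gives as males of 8 weeks. The groups were 5 uninjured muscles and muscles taken on day 3 (n = 5), day 7 (n = 6), day 14 (n = 6) and day 21 (n = 5) after 40% of the muscle had been cut away. The public record describes a unilateral and the paper a bilateral excision, and neither the sample labels nor the files settle which. The labels do not say whether the samples of a group came from separate mice, so all spreads and p-values cover the differences between these samples only, which may be technical.

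In skeletal muscle the product of Cacna1s, CaV1.1, is both the pore of the L-type calcium channel and the voltage sensor that opens the ryanodine receptor of the sarcoplasmic reticulum, the step called excitation-contraction coupling. Cacnb1 encodes its intracellular β subunit, Cacna2d1 the extracellular α2δ subunit, Cacng1 the γ subunit that dampens channel current, and Stac3 an adaptor protein that CaV1.1 needs to reach the triad and to work there. Rad (the product of Rrad) and Gem belong to the RGK family of small GTPases, which bind channel β subunits and inhibit calcium current, and Rad is known as a gene of regenerating and denervated muscle.

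Expression is given as FPKM, the fragments of a gene divided by its transcript length and by the size of the library. A log2 fold change is the difference of group means of log2(FPKM + 1) from one limma fit of all 27 samples, given with its standard error (SE). A gene is called when its adjusted p in that fit, over 14630 genes, is under 0.05. Each library held 14376395 to 24436763 reads. The deposited FPKM carry a scaling between samples: reads were divided by 0.747 to 1.48 times the library's own total, on average by 0.782 times in uninjured muscle, 1.25 times on day 3, 1.18 times on day 7, 1.04 times on day 14 and 0.897 times on day 21.

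The tissue label was checked with 10 mature myofibre markers, all of them detected, whose summed level in the 5 uninjured muscles was 93436 to 112009 FPKM. It was 23377 to 69998 FPKM on day 3, 29364 to 111823 on day 7, 46095 to 112380 on day 14 and 80624 to 116711 on day 21. Some libraries stood apart from their groups. The library labelled day 3 replicate 5 had the lowest Cd68 (a macrophage gene) of day 3, at 31.7 FPKM against 94.4 to 251 in the other 4, and the highest Myh8 (perinatal myosin), at 45.5 FPKM. The library labelled day 7 replicate 5 had 226 FPKM of Cd68 against 3.19 to 47.1 in the other 5 of day 7. In Cd68 each of these 2 libraries thus lay within the range of the other's group. They were kept as labelled, and whether they were exchanged cannot be told from the labels. In day 7 replicates 3 and 6 genes of newly formed muscle were near the uninjured level, with Myh3 (embryonic myosin) at 0.436 and 0.967 FPKM against 20.1 to 49.7 in the other 4. Some log2 fold changes and counts of called genes are also given without these 4 libraries. Levels, ranges and ratios are given with them.

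Rrad was the member with the widest range in fold terms. In uninjured muscle its level was 1.19, 0.921, 5.46, 0.927 and 1.60 FPKM in replicates 1 to 5. On day 3 it was 34.2, 44.9, 56.3, 62.0 and 11.8 FPKM. All 5 day 3 samples were above every uninjured sample, and the lowest was replicate 5, the library that stood apart. On day 7 the lowest, median and highest levels were 2.24, 45.4 and 101.2 FPKM. Here the groups overlapped: replicates 3 and 6, at 3.95 and 2.24 FPKM, lay within the uninjured range, and the other 4 lay between 33.9 and 101.2 FPKM. The overlap rests on uninjured replicate 3, at 5.46 FPKM. Both day 7 samples lay above the remaining uninjured ones (0.921 to 1.60 FPKM). On day 14 the 6 samples lay between 38.0 and 60.8 FPKM with a median of 53.2, the narrowest spread of the injured groups. On day 21 the level was 60.1, 94.6, 50.4, 84.6 and 12.6 FPKM, and again all samples were above the uninjured ones.

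As group means, Rrad was at 2.02 ± 1.94 FPKM without injury (SD, n = 5), 41.9 ± 19.9 on day 3, 49.4 ± 44.0 on day 7, 50.9 ± 10.2 on day 14 and 60.5 ± 32.2 on day 21. The 4 injured groups were neighbours in this order that differed by less than their SD, and only the step from uninjured muscle to day 3 went beyond it. The mean of FPKM on day 21 was 29.9 times the uninjured one. The log2 fold changes were 3.81 on day 3 (SE 0.74), 3.30 on day 7 (SE 0.71), 4.26 on day 14 (SE 0.71) and 4.26 on day 21 (SE 0.74). Day 21 differed from day 3 by 0.44, with a 95% interval from -1.08 to 1.96, so neither a further increase nor a decline was resolved. Without day 7 replicates 3 and 6 the day 7 value was 4.65. Without the libraries labelled day 3 replicate 5 and day 7 replicate 5 the day 3 value was 4.20 and the day 7 value 3.22. Rrad rests on few reads in uninjured muscle, 18 to 101 per library, and on 44 to 3610 in the injured ones. Without its highest uninjured library, replicate 3, the day 3 log2 fold change was 4.13. Rrad shares 141 of its 1577 exon bases with Gm33023 on the other strand, which was at most at 0.853 FPKM. In libraries without strand their reads there cannot be told apart. In whole muscle, fewer cells of a type and less RNA per cell cannot be told apart, and the same holds for more of either.

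**Figure D1:**
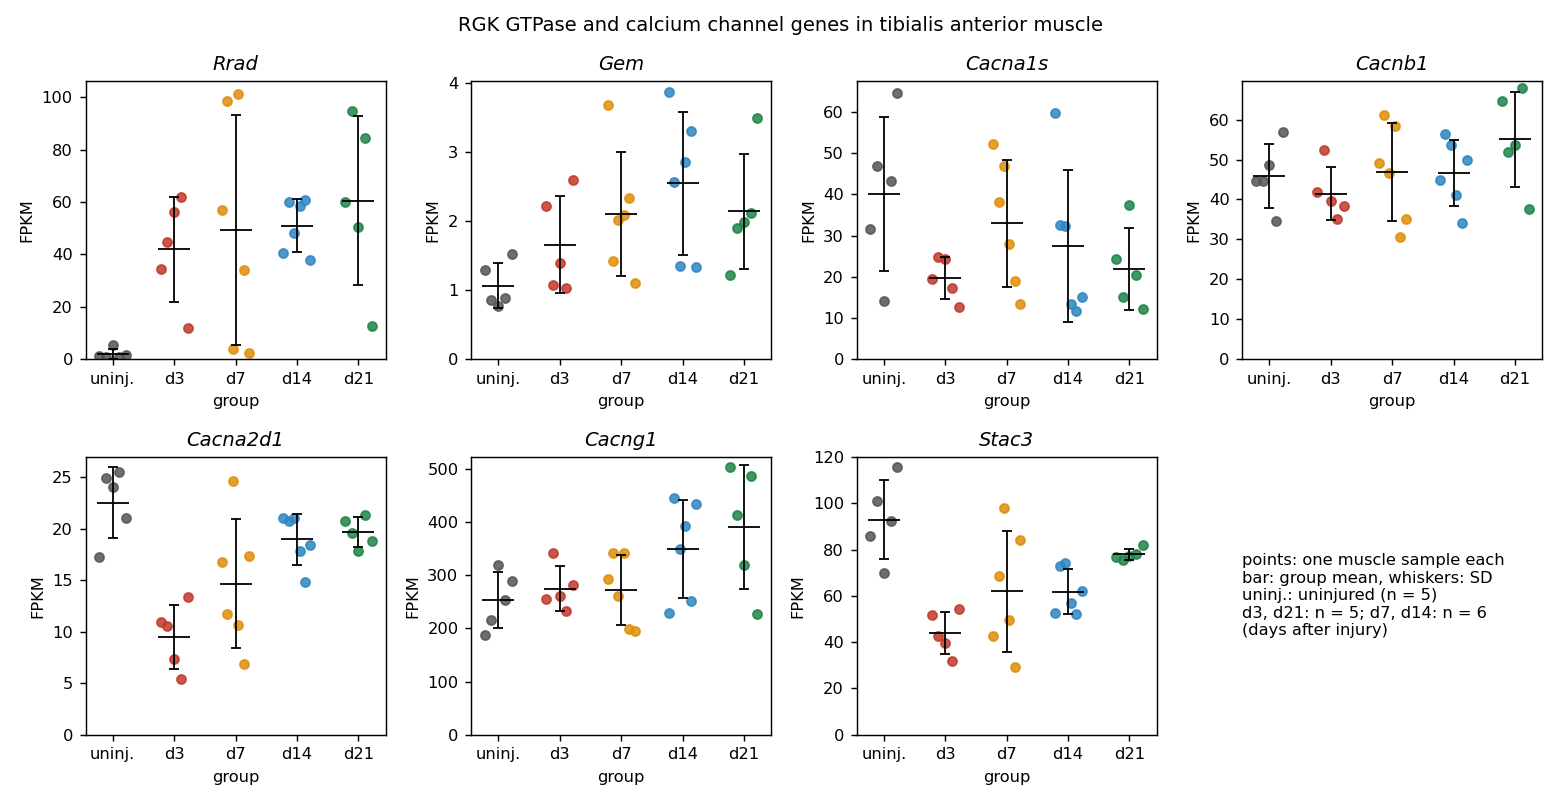
FPKM of the 7 genes by group; each point is 1 muscle sample, the long bar is the group mean and the whiskers are the SD (n = 5 uninjured, 5 on day 3, 6 on day 7, 6 on day 14, 5 on day 21). Every axis starts at 0. Rrad lies at 0.921 to 5.46 FPKM in uninjured muscle and up to 101.2 FPKM after injury, with 2 samples of day 7 at 3.95 and 2.24 FPKM, whereas Cacnb1 overlaps with the uninjured range in each group.

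The level of Rrad was set beside 10 markers of newly formed muscle. They include Myh3, Myog (a myogenic transcription factor) and Mymk (a fusion protein of myoblasts). Of the 10, 9 rose on day 3, 8 on day 7, 8 on day 14 and 4 on day 21. Over all genes tested, 23.4%, 15%, 9.02% and 1.74% were called higher on these days. The markers Chrng and Mymx were under 0.5 FPKM in every uninjured sample. They passed the filter only through injured samples, which favoured their calls. The summed level of the 10 was 21.5 to 33.0 FPKM in uninjured muscle, 226 to 602 on day 3, 28.002 to 390 on day 7, 124 to 248 on day 14 and 57.7 to 190 on day 21, and 0 of the 10 were at 0 in all samples. The 4 samples lowest in Rrad for days 3, 7 and 21 were also the lowest in these markers within their groups, as means of log2(FPKM + 1). Myog was at 2.32 and 1.503 FPKM in day 7 replicates 3 and 6, at 39.6 FPKM in day 3 replicate 5 against 130 to 203 in the rest of that group, and at 9.95 FPKM in day 21 replicate 5 against 32.6 to 53.4. The part of newly formed muscle in the level of Rrad was not tested.

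**Figure D2:**
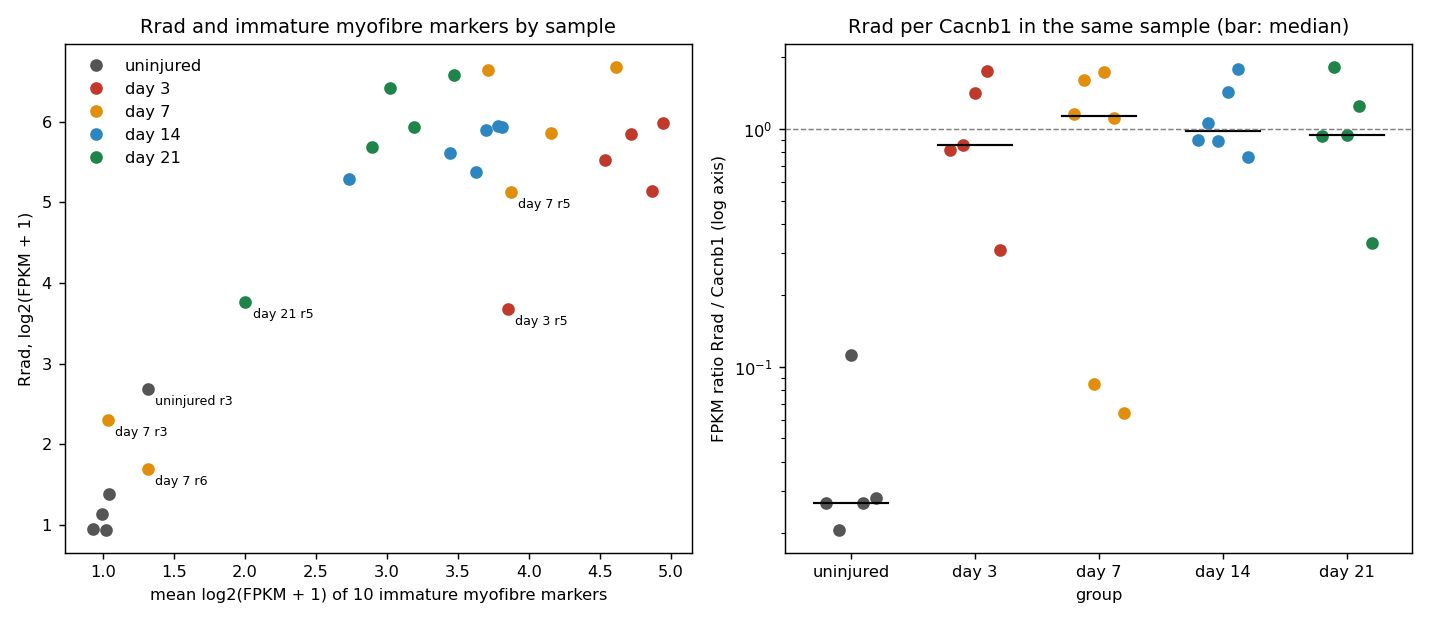
Left, log2(FPKM + 1) of Rrad against the mean log2(FPKM + 1) of 10 markers of newly formed muscle, 1 point per sample; right, the ratio of Rrad to Cacnb1 in FPKM per sample on a log axis, with the group median as a bar and a dashed line at a ratio of 1. The uninjured samples and day 7 replicates 3 and 6 sit at the lower left, and the ratio has a median of 0.0267 without injury and of 0.942 on day 21.

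Of all genes tested, those whose log2(FPKM + 1) was most like that of Rrad over the 27 samples were Runx1 (Pearson r = 0.950), a transcription factor, Aif1l (r = 0.942), which encodes an actin-binding protein, and Ttc9 (r = 0.938). Runx1 was at 0.154 ± 0.0666 FPKM in uninjured muscle (n = 5), 4.05 ± 1.67 on day 3 and 2.88 ± 1.23 on day 21. These r describe samples that share their groups and libraries.

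Gem, the other RGK gene, was expressed at a far lower level per length than Rrad in injured muscle. In uninjured muscle it was at 1.28, 0.856, 0.770, 0.888 and 1.53 FPKM, and on day 3 at 2.21, 1.08, 1.39, 1.02 and 2.59 FPKM. These 2 groups overlapped. On day 7 the lowest, median and highest levels were 1.11, 2.04 and 3.68 FPKM, and on day 14 they were 1.33, 2.71 and 3.87 FPKM. In both groups 4 of 6 samples were above the highest uninjured sample. On day 21 Gem was at 1.21, 1.89, 1.98, 2.12 and 3.49 FPKM, and 4 of 5 samples were above. The order of the group means ran from day 14 (2.54 ± 1.03 FPKM) through day 21 (2.14 ± 0.833), day 7 (2.10 ± 0.896) and day 3 (1.66 ± 0.706) to uninjured muscle (1.06 ± 0.325), and no neighbours in it differed by more than their SD. The log2 fold change was 0.34 on day 3 (SE 0.23), 0.56 on day 7 (SE 0.22), 0.74 on day 14 (SE 0.22) and 0.58 on day 21 (SE 0.23), and only that of day 14 was called. It was not called without day 14 replicate 5 (log2 fold change 0.67). The day 7 value was called in 7 of 14 other settings, among them the pseudocount of 0.1 (0.87) and FPKM brought to a common sum in each library (1.02), and in 3 of 11 fits that left out 1 library (without uninjured replicate 5 or day 7 replicates 2 or 6). Each library held 19 to 208 reads of Gem.

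In each of the 5 groups the sample with the highest Gem was another than the one with the highest Rrad. For example, day 21 replicate 5 had the highest Gem and the lowest Rrad of its group, and so had day 3 replicate 5. The ratio of Rrad to Gem in FPKM had a median of 1.05 in uninjured muscle, 40.6 on day 3, 14.99 on day 7, 21.9 on day 14 and 39.9 on day 21. Its uninjured range, 0.927 to 7.09, overlapped with those of days 3, 7 and 21. The upper end came from uninjured replicate 3, the library with the highest uninjured Rrad (5.46 FPKM), and the overlap rests on that library. The genes most like Gem over the 27 samples were Boc (r = 0.829), a cell surface receptor, Ddr2 (r = 0.829), a collagen receptor of connective tissue cells, and Fubp1 (r = 0.793). Fibroblast and fibro-adipogenic progenitor markers were also higher in the injured groups: 4 of 6 rose on day 3, 5 on day 7, 4 on day 14 and 2 on day 21. Over all genes tested, 23.4%, 15%, 9.02% and 1.74% were called higher on these days. The summed level of these markers was 40.1 to 100.4 FPKM in uninjured muscle and 283 to 543 FPKM on day 3. Their part in the level of Gem was not tested.

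Rem1 and Rem2, the other RGK genes, are outside the 7. Rem1 was at 2.35 ± 0.342 FPKM without injury and between 2.44 ± 1.13 (day 7) and 3.46 ± 1.53 FPKM (day 14) after it, with 4 of 5 samples above the highest uninjured sample on day 3 and 4 of 6 on day 14. Its log2 fold change on day 3 was 0.34 (SE 0.22, adjusted p = 0.228, limma), the same size as that of Gem, and it was not called at any time. Rem2 was detected in few libraries, with 0 reads in the 5 uninjured and the 5 day 21 samples and 19 reads in all on day 3, and could not be tested. Both belong to a textbook list of 22 relatives and partners of RGK proteins, with 14-3-3 proteins, calmodulins, CaM kinases, Rock kinases and ezrin, of which 20 genes were tested.

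Of these 20, 6 rose and 4 fell on day 3, beside 23.4% and 19.8% of all genes. Those that rose were the 14-3-3 genes Ywhaz, Ywhab, Ywhah and Ywhaq, Ezr (ezrin, which links membrane and actin) and Gmip (a GTPase-activating protein that binds Gem). Those that fell were the CaM kinase genes Camk2a, Camk2b and Camk2g and the kinase gene Rock2. Gmip was at 0.406, 0.649, 0.860, 0.717 and 0.738 FPKM without injury and at 3.29, 2.68, 4.12, 5.27 and 3.14 FPKM on day 3, with no overlap, and its log2 fold change was 1.47 (SE 0.22, adjusted p = 1.08e-05). Ezr was at 0.833 ± 0.168 FPKM and 4.45 ± 1.25 FPKM, with a log2 fold change of 1.54 (SE 0.25, adjusted p = 2.98e-05). Camk2a was at 46.9 ± 8.53 FPKM in uninjured muscle and 15.4 ± 3.61 FPKM on day 3 (log2 fold change -1.56, SE 0.33, adjusted p = 0.000500). Camk2g was at 23.6 ± 2.24 and 13.3 ± 1.74 FPKM (-0.79, SE 0.16, adjusted p = 0.000325), and this fall all but vanished with FPKM rescaled to a common sum (-0.01). Day 7 had 6 higher and 2 lower (15% and 14.4% of all genes), day 14 had 7 higher and 3 lower (9.02% and 11.3%), and day 21 had 0 called (3.43%), where 8 had an unadjusted p under 0.05 in limma. The median log2 fold change of the list lay between 0.02 and 0.12 at the 4 times, beside 0.01 to 0.03 for all genes tested. It depended on the scaling: on day 3 it was 0.83 with FPKM brought to a common sum in each library, where the median of all genes was 0.51, and 0.69 with each library's own total as the denominator, where that of all genes was 0.40.

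Cacna1s, the pore and voltage sensor, varied widely within each group. In uninjured muscle it was at 31.7, 46.8, 14.1, 43.2 and 64.7 FPKM, and replicate 3 was the lowest of them. On day 3 it was at 19.5, 24.9, 24.3, 17.2 and 12.6 FPKM, so that 4 of the 5 samples lay within the uninjured range. The lowest, median and highest levels were 13.4, 33.1 and 52.2 FPKM on day 7 and 11.6, 23.7 and 59.8 FPKM on day 14. On day 21 it was at 24.2, 14.99, 37.4, 20.4 and 12.05 FPKM. The group means ran from 40.1 ± 18.8 FPKM without injury through 33.0 ± 15.4 (day 7), 27.4 ± 18.4 (day 14) and 21.8 ± 9.92 (day 21) to 19.7 ± 5.12 FPKM (day 3), and neighbours differed by less than their SD. The log2 fold changes of -0.87 on day 3 (SE 0.43), -0.27 on day 7 (SE 0.41), -0.61 on day 14 (SE 0.41) and -0.80 on day 21 (SE 0.43) were not called, and the 95% interval on day 21 ran from -1.67 to 0.08. The call on day 3 turned on 1 library: without uninjured replicate 3 the value was -1.20 and was called. Its nearest genes over the 27 samples were Atg9a (r = 0.938), an autophagy gene, Tmod1 (r = 0.936), which caps actin filaments, and Pmpca (r = 0.931), a mitochondrial processing peptidase subunit. Up to 1309 of the 6550 exon bases of Cacna1s are shared with Gm37759 on the other strand, which was at 0.0942 to 1.34 FPKM, and in libraries without strand their reads cannot be told apart.

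Of the 7 genes, 3 had a window around their start in the RefSeq promoter table (build GRCm38.p6): Cacna1s, Cacnb1 and Cacna2d1. The bases just upstream of the annotated transcript are shown for Cacna1s, the pore gene, and for Cacna2d1, the subunit gene with the lowest level relative to uninjured muscle on day 3, to set a muscle gene window beside one of a widely expressed gene. They lie at chr1:136052561-136052749 and chr5:15934441-15934690, both on the plus strand. Capitals mark the E-box CANNTG, the motif that myogenic factors bind, searched on both strands, on which it reads the same.
Cacna1s: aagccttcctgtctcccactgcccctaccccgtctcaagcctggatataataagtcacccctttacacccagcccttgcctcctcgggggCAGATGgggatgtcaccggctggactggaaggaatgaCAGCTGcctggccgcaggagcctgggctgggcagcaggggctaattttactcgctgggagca
Cacna2d1: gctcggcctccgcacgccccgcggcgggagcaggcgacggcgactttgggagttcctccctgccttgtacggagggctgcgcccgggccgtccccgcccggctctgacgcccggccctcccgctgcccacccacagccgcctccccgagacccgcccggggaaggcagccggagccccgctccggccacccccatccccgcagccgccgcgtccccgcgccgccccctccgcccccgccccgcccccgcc
The 189 bases of Cacna1s hold 2 E-boxes and 5 CpG, with a GC content of 60.8%. Of 32851 promoter windows of that length, 57.1% hold at least 1 E-box and 22.4% at least 2. The 250 bases of Cacna2d1 hold 36 CpG at a GC content of 82.4%, which 0.578% of all windows reach, and no E-box, whereas 66.2% of windows of that length hold one. The match of a motif is a description of these letters only.

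Cacnb1, the β subunit to which RGK proteins bind, overlapped with its uninjured range in all groups. It was at 44.6, 44.5, 48.6, 34.7 and 56.9 FPKM without injury and at 42.0, 52.4, 39.6, 35.2 and 38.2 FPKM on day 3. All 5 day 3 samples lay within the uninjured range. The range was 30.5 to 61.2 FPKM on day 7 and 34.0 to 56.4 FPKM on day 14, and the day 21 samples were at 64.6, 52.0, 53.5, 67.8 and 37.7 FPKM. The log2 fold change was -0.14 on day 3 (SE 0.19), 0.00 on day 7 (SE 0.18), 0.02 on day 14 (SE 0.18) and 0.25 on day 21 (SE 0.19). The 95% interval was from -0.53 to 0.26 on day 3 and from -0.14 to 0.64 on day 21, so that differences within these bounds are not resolved in the deposited scaling. With FPKM brought to a common sum the values were 0.67 on day 3 and 0.72 on day 7, outside these bounds, and that of day 7 was called. Cacnb1 shares 80 of its 4529 exon bases with Gm11629 on the other strand (at most 1.35 FPKM).

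Since Rrad and Cacnb1 were read in the same libraries, their ratio does not depend on the scaling between samples. In FPKM, Rrad per Cacnb1 had a median of 0.0267 in uninjured muscle (0.0207 to 0.112), 0.856 on day 3 (0.309 to 1.76), 1.13 on day 7 (0.0640 to 1.73), 0.981 on day 14 (0.761 to 1.79) and 0.942 on day 21 (0.333 to 1.82). The ranges of days 3, 14 and 21 lay above the uninjured one, and that of day 7 overlapped with it through replicates 3 and 6. The upper end of the uninjured range, 0.112, was set by uninjured replicate 3, on which that overlap rests. A transcript level of Rrad at or above that of Cacnb1 was measured in 0 of 5 uninjured samples, 2 of 5 on day 3, 4 of 6 on day 7, 3 of 6 on day 14 and 2 of 5 on day 21. Gem per Cacnb1 stayed at medians of 0.0256 to 0.0576, with overlap in all groups.

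Cacna2d1, the α2δ subunit, was lower early after injury. It was at 17.2, 24.9, 24.004, 25.5 and 21.0 FPKM in uninjured muscle and at 10.9, 10.5, 7.36, 5.46 and 13.3 FPKM on day 3. The groups did not overlap. On day 7 the lowest, median and highest levels were 6.85, 14.2 and 24.6 FPKM, and 4 of 6 samples were below the uninjured range. The 2 within it were replicates 3 and 6, the samples with few markers of newly formed muscle. On day 14 the range was 14.8 to 21.1 FPKM, and on day 21 the samples were at 20.8, 19.6, 17.8, 21.3 and 18.8 FPKM, all within the uninjured range. The group means were 22.5 ± 3.42, 9.52 ± 3.11, 14.6 ± 6.26, 18.96 ± 2.48 and 19.7 ± 1.43 FPKM from uninjured muscle to day 21. The log2 fold change was -1.20 on day 3 (SE 0.23), -0.68 on day 7 (SE 0.22), -0.23 on day 14 (SE 0.22) and -0.18 on day 21 (SE 0.23), and day 21 was higher than day 3 by 1.03 (SE 0.23).

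Stac3, the adaptor, had a like course. It was at 85.7, 100.9, 70.0, 92.3 and 115.8 FPKM without injury and at 51.7, 42.6, 39.7, 31.9 and 54.2 FPKM on day 3, again without overlap. On day 7 the lowest, median and highest levels were 29.4, 59.1 and 98.0 FPKM, with replicates 3 and 6 the highest at 98.0 and 84.2 FPKM. On day 14 the range was 52.3 to 74.1 FPKM with 4 of 6 samples below the uninjured range. On day 21 the samples were at 76.8, 75.7, 77.4, 78.0 and 82.1 FPKM, a spread far narrower than that without injury and wholly inside it. The order of group means ran from uninjured muscle (93.0 ± 17.1 FPKM) through day 21 (78.0 ± 2.43), day 7 (62.1 ± 26.1) and day 14 (61.7 ± 9.77) to day 3 (44.0 ± 9.08), and of these steps only that from day 14 to day 3 was beyond the SD. The log2 fold change was -1.07 on day 3 (SE 0.23), -0.67 on day 7 (SE 0.22), -0.58 on day 14 (SE 0.22) and -0.23 on day 21 (SE 0.23), and day 21 was higher than day 3 by 0.84 (SE 0.23).

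The day 7 calls of both genes turned on single libraries and on the scaling. Without the libraries labelled day 3 replicate 5 and day 7 replicate 5, Cacna2d1 was at -0.50 and Stac3 at -0.48 and neither was called, and without day 7 replicates 3 and 6 they were at -0.96 and -0.99 and both were called. Leaving out 1 library at a time, the call of Cacna2d1 was lost without uninjured replicates 2 or 4 and day 7 replicates 4 or 5 (log2 fold changes of -0.64 to -0.50). That of Stac3 was lost without uninjured replicates 2 or 5 and day 7 replicates 1, 4 or 5 (-0.63 to -0.48). With quantile normalization (-0.53 and -0.42), the common sum (0.01 and 0.05), the own total (-0.16 and -0.12) or only the 2 groups compared in the fit, neither Cacna2d1 nor Stac3 was called on day 7. The day 14 value of Stac3 was called without uninjured replicate 3 (-0.67) and without day 14 replicate 3 (-0.63).

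Cacng1, the γ subunit, was the member with the highest level per length in every group. It was at 188, 216, 319, 254 and 288 FPKM without injury and at 255, 343, 261, 233 and 282 FPKM on day 3, with 1 day 3 sample above the uninjured range. The range was 195 to 342 FPKM on day 7 and 228 to 445 FPKM on day 14, where 4 of 6 samples were above the uninjured range. On day 21 it was at 504, 414, 318, 487 and 228 FPKM, with 3 of 5 above. The group means ran from day 21 (390.2 ± 117 FPKM) through day 14 (350.03 ± 92.2), day 3 (275 ± 41.7) and day 7 (272 ± 65.7) to uninjured muscle (253 ± 52.7), with neighbours within their SD. The log2 fold changes of 0.13 on day 3 (SE 0.23), 0.09 on day 7 (SE 0.22), 0.45 on day 14 (SE 0.22) and 0.59 on day 21 (SE 0.23) were not called.

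**Figure D3:**
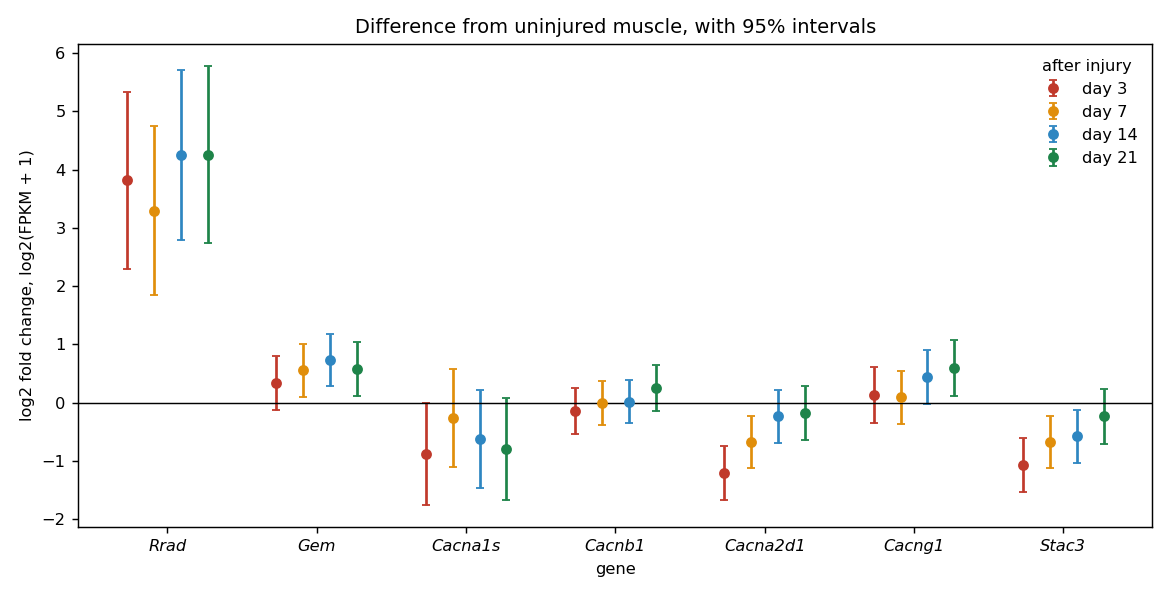
Log2 fold change of the 7 genes from uninjured muscle on the log2(FPKM + 1) scale on days 3, 7, 14 and 21, with 95% intervals from one limma fit of all 27 samples. Rrad lies between 3.30 and 4.26, Cacna2d1 and Stac3 are lowest on day 3 (-1.20 and -1.07), and the interval of Cacnb1 contains 0 at each time.

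The calls among the 7 are set beside those over the whole table. On day 3, 3 of the 7 were called (Rrad higher, Cacna2d1 and Stac3 lower) beside 43.2% of all genes tested. On day 7 the same 3 genes were called in the same directions beside 29.4% (15% higher and 14.4% lower), on day 14 Rrad and Gem, both higher, beside 20.3% (9.02% higher), and on day 21 Rrad alone, higher, beside 3.43% (1.74% higher and 1.69% lower). Ranges that did not overlap with uninjured muscle were found on day 3 for Rrad (higher, as for 19.8% of all genes) and for Cacna2d1 and Stac3 (lower, 16.5%). On day 14 and on day 21 this held for Rrad (7.67% and 5.26% of all genes were higher without overlap, 8.05% and 5.13% lower), and on day 7 for none of the 7 (7.25% higher and 5.37% lower). Between day 21 and day 3, Cacna2d1 and Stac3 were called higher on day 21, beside 9.23% of genes in that direction and 16.2% in the other. Their ranges on day 21 lay above those on day 3, as for 6.93% of genes (12.2% lay below). As the 7 were listed with these levels known, nothing is read from the counts.

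By mean FPKM, the order within uninjured muscle was Cacng1, Stac3, Cacnb1, Cacna1s, Cacna2d1, Rrad and Gem. In each injured group it was Cacng1, Stac3, Rrad, Cacnb1, Cacna1s, Cacna2d1 and Gem. In these means Rrad moved past the α1, β and α2δ subunits and the order of the others was kept. Against the β subunit this did not hold in each sample. The day 3 means were 41.9 and 41.5 FPKM, and Rrad was above Cacnb1 in 2 of 5 samples on day 3 and on day 21. The ratio of Rrad to Cacna1s in FPKM had a median of 0.0248 without injury, 1.80 on day 3, 1.43 on day 7, 2.19 on day 14 and 2.48 on day 21. The 2 subunits that diverged most on day 3 were Cacng1 and Cacna2d1: their FPKM ratio had a median of 10.9 in uninjured muscle (8.68 to 13.7) and of 32.5 on day 3 (21.1 to 42.8), without overlap, and of 21.2 on day 21 (12.1 to 24.3). These ratios do not depend on the scaling between libraries.

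The RNA of mature fibre markers differed in the same direction as that of Cacna2d1 and Stac3. Of the 10 mature myofibre markers, 8 fell on day 3, 3 on day 7, 2 on day 14 and 0 on day 21 (where 1 had an unadjusted p under 0.05 in limma). Over all genes tested, 19.8%, 14.4%, 11.3% and 1.69% were called lower on these days. The median log2 fold changes of the markers were -1.36, -0.92, -0.76 and -0.29. Set against the mean log2(FPKM + 1) of these markers in the same library, Cacna2d1 was 0.16 higher on day 3 than without injury and Stac3 0.29 higher, with ranges that overlapped. On the same scale Cacna1s was 0.49 higher on day 3 and 0.41 lower on day 21 (-0.41), also with overlap. Cacnb1 was 1.22 higher on day 3, 0.69 on day 14 and 0.64 on day 21, and in these groups its range lay above the uninjured one. Cacng1 was 1.49 higher on day 3 and 1.11 on day 14, without overlap, and 0.98 on day 21, with overlap. Rrad was 5.17 higher on day 3, 4.92 on day 14 and 4.65 on day 21, without overlap. On day 7 Rrad (4.23), Cacng1 (1.02) and Cacnb1 (0.94) were higher with overlap. Gem was 1.70, 1.49, 1.40 and 0.97 higher on days 3, 7, 14 and 21, without overlap. The mean of the markers itself differed by -1.36, -0.93, -0.67 and -0.39 on these days. A gene of unchanged level would thus also come out higher on this scale. The share of all genes without overlap on it was not counted, so nothing is read from the lack of overlap. The part of fibre content in the levels was not tested beyond these differences.

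Cells other than muscle also differed between the groups. All 8 macrophage and monocyte markers rose on day 3 and 7 of 8 on day 7, with a summed level of 23.3 to 35.6 FPKM in uninjured muscle, 447 to 2510 on day 3, 61.9 to 2425 on day 7, 59.03 to 139 on day 14 and 47.4 to 79.7 on day 21. On day 14, 3 of the 8 were higher, and on day 21 none was called (1 at an unadjusted p under 0.05, limma). Of the 5 neutrophil markers 3 were tested, of which 3 rose on day 3, 2 on day 7 and 0 on days 14 and 21 (0 at an unadjusted p under 0.05 on day 21). Of 6 endothelial markers, 3, 2, 1 and 1 fell on days 3, 7, 14 and 21. Of 6 smooth muscle and pericyte markers, 1 rose and 2 fell on day 3, 1 fell on day 7, and 0 were called later (0 at an unadjusted p under 0.05 in limma on day 21). On day 3, 43.2% of all genes tested were called. The smooth muscle counts were thus near the shares over all genes, and nothing is read from them. The part of these cells in the levels of the 7 genes was not tested.

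The scaling between samples set the direction of some members. With FPKM brought to a common sum in each library, the median log2 fold change of all genes moved to 0.51 on day 3, 0.48 on day 7, 0.29 on day 14 and 0.12 on day 21. With each library's own total of reads as the denominator it moved to 0.40, 0.36, 0.25 and 0.12, and with quantile normalization to -0.12 on day 3. Of the genes called on day 3, 54.1% were higher as deposited, 95.5% with the common sum, 91.4% with the own total and 42.6% with quantile normalization. Relative to the median gene of the same fit, Rrad stood at 3.80 to 3.96 on day 3, Cacna2d1 at -1.21 to -0.95 and Stac3 at -1.08 to -0.76 under these 4 scalings. Cacnb1 turned from -0.15 to 0.16 relative to the median gene, and Cacng1 lay between 0.12 and 0.56. With the common sum, Cacna2d1 and Stac3 were not called on day 3 (-0.44 and -0.26 before the median is taken off), and Gem (0.79) and Cacng1 (0.95) were called as higher. Cacng1 was called on day 14 under all 3 other scalings (0.78 to 0.92).

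Of 24 other calcium channel subunit and Stac genes on a textbook list, 9 passed the filter on low values. On day 3 Cacnb3 and Stac2 rose, Cacng6, Cacng7 and Cacna2d4 fell, and 4 were not called, so that 5 of 9 were called beside 43.2% of all genes. Stac2 passed the filter only through days 3 and 7, so the filter favoured its calls on these days. The counts were 2 higher and 2 lower on day 7 (29.4% of all genes were called), 1 higher and 3 lower on day 14 (20.3%) and 1 lower on day 21 (3.43%). The median log2 fold change lay between -0.05 and 0.05, and with the common sum it was 0.20 on day 3. Cacna1c, the pore gene of heart muscle, was at 0.0953 to 0.604 FPKM over all samples and was too low to be tested. Cacnb3, another β subunit, was at 1.11 ± 0.176 FPKM without injury and 2.45 ± 1.26 on day 3, 3.29 ± 0.889 on day 7 and 2.54 ± 0.863 on day 14, in each case above the uninjured range (log2 fold change on day 7 1.003, SE 0.21, adjusted p = 0.00143). Even on day 7 its mean FPKM was far under that of Cacnb1, 46.8 ± 12.3.

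Stac2, the relative of Stac3, had 2 reads in 1 of 5 uninjured libraries and none in the other 4. It was at 1.31, 1.05, 1.41, 1.37 and 1.11 FPKM on day 3, from 54 to 117 reads per library, and at 0.230 to 1.53 FPKM on day 7. By day 21 it was at 0 to 0.171 FPKM, within reach of the uninjured samples. Its log2 fold change on day 3 was 1.15 (SE 0.15, adjusted p = 3.83e-06), a value set by the pseudocount of 1. Stac2 reached the 0.5 FPKM of the filter only in samples of days 3 and 7, where it was high. Nothing is therefore read from this p. While Stac2 rose, Stac3 was at its lowest, yet the mean FPKM of Stac3 on day 3, 44.0 ± 9.08, was still far above the 1.25 ± 0.162 of Stac2.

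Cacng6, the γ subunit gene related to Cacng1, took another course than Cacng1. It was at 79.6 to 96.3 FPKM without injury and at 28.1 to 55.5 FPKM on day 3, without overlap (log2 fold change -1.25, SE 0.32, adjusted p = 0.00289). It was at 42.1 ± 19.1 FPKM on day 14 (-1.18, SE 0.31, adjusted p = 0.00951) and 59.5 ± 17.9 FPKM on day 21, where it was not called. With the common sum or the own total its day 3 value kept its direction (-0.44 and -0.60) and was not called. The FPKM ratio of Cacng1 to Cacng6 had a median of 3.05 in uninjured muscle (2.36 to 3.31), 7.37 on day 3 (6.18 to 10.01), 7.30 on day 14 (6.50 to 15.2) and 5.48 on day 21 (5.20 to 9.09), and those 3 injured groups lay wholly above the uninjured one. On day 7 it was 2.82 to 14.3, with overlap. Cacna2d4 fell from 2.80 ± 0.452 FPKM to 0.699 ± 0.297 on day 3 (-1.17, SE 0.15, adjusted p = 1.93e-06) and was the 1 gene of the list called on day 21, at 1.59 ± 0.215 FPKM (-0.55, SE 0.15, adjusted p = 0.0363), a call that was lost with the common sum (-0.39) and with the own total (-0.40).

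The partners of the channel at the triad, where the sarcoplasmic reticulum meets the transverse tubule, were mostly lower on day 3, and on day 21 none passed the test. Of 18 triad genes 17 were tested, and on day 3, 11 fell and 2 rose, beside 19.8% and 23.4% of all genes. On day 7, 9 fell and on day 14, 5 fell, with none higher at either time, and on day 21 none was called (1 at an unadjusted p under 0.05, limma). The median log2 fold change was -0.95, -0.70, -0.48 and -0.09. Even so, 2 genes had day 21 ranges wholly below the uninjured one, both named after their values were seen: Asph at 14.6 ± 1.95 against 18.6 ± 0.778 FPKM and Srl at 174 ± 45.6 against 255 ± 26.8 FPKM (5.13% of all genes tested were lower without overlap). With the common sum the median on day 3 was -0.18, where that of all genes was 0.51, 7 of the 17 were called (5 higher and 2 lower), and 6 of the 17 had a positive sign. On day 7 the 3 called with the common sum were all higher, as were the 2 called with the own total. With quantile normalization it was -0.72.

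Ryr1, the release channel that CaV1.1 gates, was at 102, 109.5, 134, 101 and 149 FPKM without injury and 50.4, 54.8, 48.6, 33.2 and 52.9 FPKM on day 3, without overlap (log2 fold change -1.29, SE 0.21, adjusted p = 4.4e-05). It was at 78.4 ± 24.2 FPKM on day 7 (-0.64, SE 0.21, adjusted p = 0.0208), and with the common sum this day 7 value had the other sign (0.08) and the day 3 value (-0.48) was not called. On day 21 it was at 94.9 ± 12.47 FPKM. Jph1, which ties the membranes of the triad together, was at 56.5 ± 10.8 FPKM without injury and 18.2 ± 3.71 on day 3 (-1.59, SE 0.28, adjusted p = 7.48e-05), and on day 21 it was at 35.3 ± 11.6 FPKM, with 4 of 5 samples below the uninjured range. Trdn (triadin) was at 138 ± 39.4 and 49.4 ± 22.4 FPKM (-1.57, SE 0.40, adjusted p = 0.00265) and at 141 ± 43.6 FPKM on day 21. The 2 triad genes that rose on day 3 were Casq2, the cardiac and slow fibre calsequestrin, from 12.4 ± 2.42 to 33.5 ± 9.43 FPKM (1.34, SE 0.45, adjusted p = 0.0186), and Fkbp1a, which binds the release channel and is widely expressed, from 47.9 ± 3.74 to 62.8 ± 7.32 FPKM (0.38, SE 0.14, adjusted p = 0.0272). Of the 7 members, the day 3 log2 fold changes of Cacna2d1 (-1.20), Stac3 (-1.07) and Cacna1s (-0.87) were near the median of the triad list, and those of Cacnb1 (-0.14) and Cacng1 (0.13) were not.

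**Figure D4:**
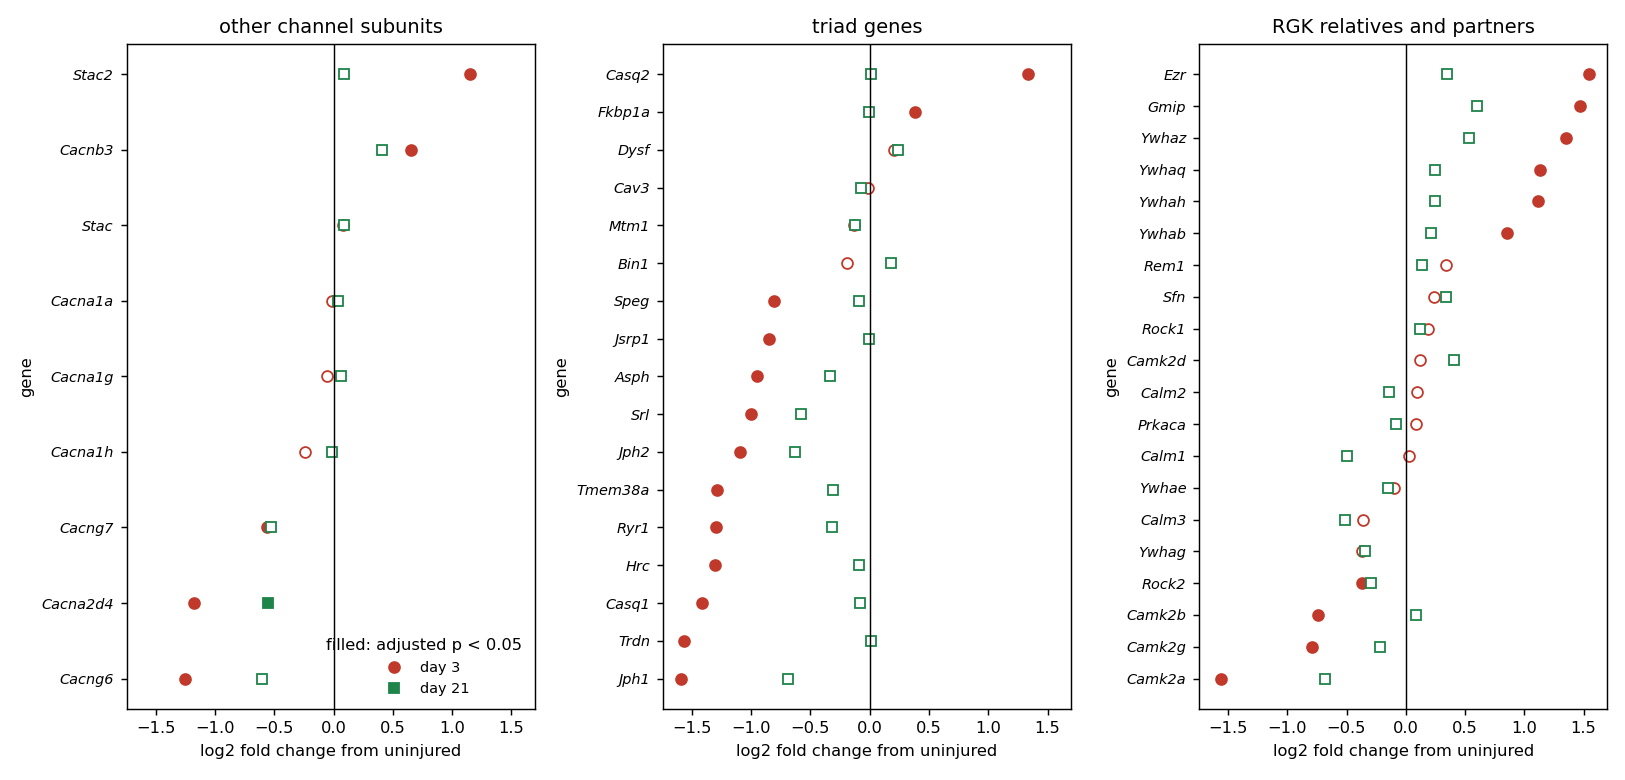
Log2 fold change from uninjured muscle on day 3 (circles) and day 21 (squares) of the tested genes of 3 lists: 9 other channel subunit and Stac genes, 17 triad genes and 20 relatives and partners of RGK proteins. Filled symbols passed an adjusted p of 0.05 (limma); on day 3 these number 5, 13 and 10, and on day 21 only Cacna2d4 is filled.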

How the data were processed

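Polyadenylated RNA of 27 muscle samples was sequenced by Novogene from libraries that do not keep strand. Per the submitters' processing notes, reads were aligned with HISAT2 2.0.5 and counted with featureCounts 1.5.0-p3. The authors deposited 1 table of FPKM with gene lengths for 54532 genes, with no columns of their own comparisons, and 0 per-sample columns were left unused. The build is not given in the sources used here: 54409 genes were found in GENCODE M21 (GRCm38), 98.3% with the same coordinates. FPKM times length gave whole reads for 100% of values (tolerance 0.05 reads), with 14376395 to 24436763 reads per library, which set the precision of each value. Intervals cover the spread between samples, and read numbers counting error only.

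Groups were read from the sample titles. FPKM were transformed to log2(FPKM + 1), and the 14630 genes reaching 0.5 FPKM in 5 or more samples were fitted with limma 3.58.1 (R 4.3.3), with a mean for each group, a variance trend, two-sided tests and Benjamini-Hochberg adjustment over all genes tested within each contrast. The study's methods name limma on log FPKM and state neither pseudocount nor filter. The fit was tested on simulated data. Tables and figures were made with Python 3.11.15, pandas 2.3.3, numpy 2.4.6 and matplotlib 3.10.9. The members and lists were chosen with earlier results of these data known. The marker and pathway lists came from textbook knowledge, and 1 marker list is not reported here. Genes named besides the 7 were, in each of the 3 pathway lists, the 2 called genes with the highest and the 2 with the lowest log2 fold changes at day 3 and at day 21, Rem1, Rem2, Cacna1c and Ryr1 whatever their result, and for Rrad, Gem and Cacna1s the 3 genes with the highest Pearson correlation. Other genes of the lists are named where a count of them is small, and Cd68, Myh8, Myh3 and Myog to describe libraries that stood apart; these were picked after their values were seen.

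Alternatives were pseudocounts of 0.1 and 0.5, no filter, an FPKM minimum of 1, quantile normalization, FPKM rescaled to a common sum, the own total of reads as denominator, no variance trend, voom weights on the recovered reads, a block for replicate number or letter, fits of only the 2 groups compared, leaving out each sample in turn, and leaving out the libraries that stood apart, of which day 7 replicates 3 and 6 were chosen after seeing the data.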

Additional observations from a re-analysis of the deposited data

Results flagged for a closer look

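In 105 groups of 5 or 6 samples checked by Dixon's test, 8 held a sample far from the others, where chance flags about 1 in 20 groups, or 5.25 of these. Among the members this was Rrad in uninjured replicate 3, at 5.46 FPKM beside 0.921 to 1.60 in the other 4. Among the pathway genes, Cacna2d4 stood apart at 0.190 FPKM in day 3 replicate 4 and at 2.52 FPKM in day 14 replicate 6, Stac2 at 0.0543 FPKM in uninjured replicate 3 (2 reads, beside 4 libraries at 0, where any read would stand apart), Ryr1 at 33.2 FPKM in day 3 replicate 4, Jph1 at 55.6 FPKM in day 21 replicate 4, Casq2 at 5.83 FPKM in day 14 replicate 6 and Gmip at 2.65 FPKM in day 21 replicate 5.

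Of the named pathway genes, 10 were called in the limma contrast of day 21 minus day 3, beside 25.5% of all genes tested. All but Ryr1 had been named for a large change on day 3, and this contrast uses the same day 3 samples. That choice favours a difference back toward the uninjured level. Nothing is therefore read from the count or, Ryr1 aside, from the adjusted p. On the log2(FPKM + 1) scale, Trdn was higher at day 21 by 1.58 (adjusted p = 0.00537), Ryr1 by 0.98 (adjusted p = 0.00162), Jph1 by 0.90 (adjusted p = 0.019), Cacna2d4 by 0.63 (adjusted p = 0.00289) and Camk2g by 0.57 (adjusted p = 0.0106). The differences were -1.32 for Casq2 (adjusted p = 0.0324), -1.20 for Ezr (adjusted p = 0.000956), -1.07 for Stac2 (adjusted p = 4.63e-05), -0.87 for Gmip (adjusted p = 0.00436) and -0.39 for Fkbp1a (adjusted p = 0.0399).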

How the results depend on the processing

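The call of Rrad on days 3, 7 and 14 was kept under all alternatives run, with log2 fold changes of 2.91 to 5.05, and that on day 21 under all but the voom weights, where it was 5.04 and not called. With FPKM rescaled to a common sum, the day 7 values of Cacna2d1 (0.0080) and Stac3 (0.048) had the other sign. Gem on day 14 was called under each alternative other than leaving out day 14 replicate 5.

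List counts moved most with the scaling. With the common sum, other channel subunits numbered 3 called on day 3, 1 on day 14 and 0 on day 21, triad genes 7, 3 and 0 on days 3, 7 and 14, and RGK relatives and partners 6 on day 14. Of these triad genes 5 were higher and 2 lower on day 3 and all 3 higher on day 7, where in the deposited scaling 9 fell and none rose. With the own total the other channel subunits were 3 on day 3, 2 on day 14 and 0 on day 21, and triad genes 2 on day 7 and 1 on day 14, all of them higher. With quantile normalization triad genes were 4 on day 7 and 2 on day 14, and RGK relatives 6 on day 14. Without the filter triad genes and RGK relatives on day 14 were 2 and 6, and other channel subunits on day 21 were 0, as with pseudocounts of 0.1 and 0.5 and with voom weights. RGK relatives on day 21 were 1 with the pseudocount of 0.1. With only the 2 groups in the fit, triad genes on day 7 were 4, and other channel subunits and RGK relatives on day 21 were 2 and 4. Without the libraries labelled day 3 replicate 5 and day 7 replicate 5, triad genes on day 7 were 4 and RGK relatives on day 21 were 2, and without day 7 replicates 3 and 6 the latter were 1. The cause of these shifts was not tested.

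Leaving out 1 library at a time, other channel subunits on day 21 ranged from 0 to 1 (0 without uninjured replicates 1, 3, 4 or 5 or day 21 replicates 1, 2 or 4). Triad genes on day 7 ranged from 5 to 11 (5 without uninjured replicate 5 or day 7 replicates 4 or 5) and on day 14 from 2 to 6 (2 without day 14 replicate 5, and 3 without uninjured replicates 2, 3 or 5 or day 14 replicates 1 or 4). RGK relatives on day 14 ranged from 6 to 10 (6 without uninjured replicate 5 or day 14 replicates 4 or 5) and on day 21 from 0 to 1 (1 without day 21 replicate 5).

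Deviations from the group means showed no clear pairing by replicate number, which does not exclude one. Samples with the same number had a median correlation of -0.003 (-0.521 to 0.566), with 15 of 51 pairs over 0.1. Those with different numbers had a median of 0.003 and exceeded 0.1 in 55 of 240 pairs. With the replicate block by number, RGK relatives called on day 21 were 1. With the block by letter, other channel subunits, triad genes and RGK relatives called on day 21 were 2, 1 and 2. Gem was called as higher on days 7 and 21 under both blocks, and Stac3 as lower on day 14 under the block by number (-0.63). Stac3 on day 14 was called in 4 of 14 settings in all. Depth limits what can be said of Gem, Rem2 and Stac2, with at most 208, 8 and 140 reads in a library.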
